A study of Mus musculus with 12 samples.

Results

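The CHD genes encode 9 large chromatin remodelers, Chd1 to Chd9, and their mRNA levels were followed in the cerebellar cortex of mice on 3 diets. Members were chosen by their gene symbols. All 9 were found among the 54752 genes of the count table. Chd9 was picked for its difference between DR and the other diets, so its DR values are given below as a description and without a test. The other 8 members were included by name. The 12 samples came from male wild-type F1 hybrids of C57BL6J and FVB aged 12 weeks, with 4 samples on each diet. Samples are called mice below, although the labels do not state that each was a separate animal. The AL mice ate synthetic pellets ad libitum. The DR mice were on dietary restriction: a reduced portion once a day just before the dark period, phased in over the preceding weeks, and withheld on the day of dissection. The KD mice received a ketogenic diet, of which the labels give only the name. AL and DR mice were dissected within a window early in the dark period, and the time of each dissection was not used here. These 8 libraries were selected by RNA quality from a larger number of mice.

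CHD proteins use the energy of ATP to slide, evict or space nucleosomes, and they are recognized by a tandem of chromodomains beside a SNF2-type ATPase. Chd1 and Chd2 act along transcribed genes. Chd3, Chd4 and Chd5 are alternative ATPases of the NuRD complex, which joins remodeling with histone deacetylation. Chd6, Chd7, Chd8 and Chd9 form the last subfamily. In the cerebellum, Chd4 and Chd7 are known for their roles in granule neurons, CHD7 mutation underlies CHARGE syndrome, and CHD8 and CHD2 are genes of neurodevelopmental disorders. Chd9 has been described as a coactivator of the nuclear receptor PPAR alpha.

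What the members share is shown by the coding sequence around the DEAH box, the ATPase motif named after its amino acids. The stretches below were read from the GENCODE vM21 transcript with the longest coding sequence of each gene, on the GRCm38 genome. Each has 60 bases, written in the direction of the gene, and capitals mark the 12 bases of the DEAH codons. Every stretch lies within a single coding exon, and each transcript held the motif once in frame.
Chd1: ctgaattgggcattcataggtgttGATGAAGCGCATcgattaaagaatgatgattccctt
Chd2: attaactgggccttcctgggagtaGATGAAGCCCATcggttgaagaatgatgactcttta
Chd3: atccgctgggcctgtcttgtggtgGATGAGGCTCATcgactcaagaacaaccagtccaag
Chd4: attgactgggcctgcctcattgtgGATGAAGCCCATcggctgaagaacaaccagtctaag
Chd5: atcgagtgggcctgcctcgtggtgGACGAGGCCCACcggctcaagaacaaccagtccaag
Chd6: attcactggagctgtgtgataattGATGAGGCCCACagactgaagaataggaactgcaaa
Chd7: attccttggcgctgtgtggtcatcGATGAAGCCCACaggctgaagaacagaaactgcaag
Chd8: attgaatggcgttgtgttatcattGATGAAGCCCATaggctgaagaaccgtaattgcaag
Chd9: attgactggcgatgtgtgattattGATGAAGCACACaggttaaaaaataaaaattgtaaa

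Of the 60 aligned bases, 23 were identical in all 9 genes, and the 36 pairs of genes shared between 29 and 51. The stretch of Chd9 shared 44 to 46 bases with those of Chd6, Chd7 and Chd8. It shared 33 to 40 with those of the other members. It lies on the plus strand in exon 14 of 40, at chr8:90994547-90994606.

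Between 31712084 and 40798644 reads were counted per library, and every member had between 1418 and 29489 counts in each library. All 9 therefore passed the low-count filter in every comparison. The tissue label was checked with markers: the summed level of 10 granule cell markers was 6373 to 6910 CPM (counts-per-million of the library total, scaled by edgeR's TMM method), whereas 10 markers of cerebellar nuclei, brainstem and forebrain reached at most 6.78 CPM. Of the latter, Dbh, Hoxa5, Hoxb5 and Slc6a4 were among those at 0 in at least 1 library. In bulk tissue, fewer cells of a type and less RNA per cell cannot be told apart. The p-values measure the spread between these samples.

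Levels of different genes were compared per length, as FPKM (CPM per kilobase). Divided by all exonic bases of the table, Chd4 was highest on AL, at 34.7 ± 1.67 FPKM (SD, n = 4). Chd3 followed at 32.0 ± 0.73, Chd7 at 29.4 ± 2.05 and Chd9 at 24.7 ± 1.99 FPKM (SD, n = 4 each). Chd2, Chd8 and Chd6 lay between 9.17 and 11.4 FPKM. Chd1 was at 6.22 ± 0.19 and Chd5, the member known mainly from neurons, was lowest at 4.75 ± 0.052 FPKM (SD, n = 4 each). Of neighbours in this order on AL, Chd3 and Chd7 had overlapping ranges over the mice, from 31.3 to 33.0 and from 28.0 to 32.4 FPKM, and the ranges of all other neighbours were separate.

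The place of Chd9 in this order depended on the length used. The exonic bases of all its annotated transcripts sum to 23148, while its transcript with the longest coding sequence has 11565 bases. Divided by the latter, Chd9 was the highest member on every diet, at 49.4 ± 3.99 FPKM on AL, 62.5 ± 3.73 on DR and 44.3 ± 1.32 on KD (SD, n = 4 each). Chd4 then had 42.5 ± 2.05 FPKM on AL, and Chd5 stayed lowest at 4.79 ± 0.052 FPKM (SD, n = 4 each). The annotated length does not enter the comparisons between diets, since the same value is used for every mouse. Whether the diets differed in the transcripts used was not tested.

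**Figure D1:**
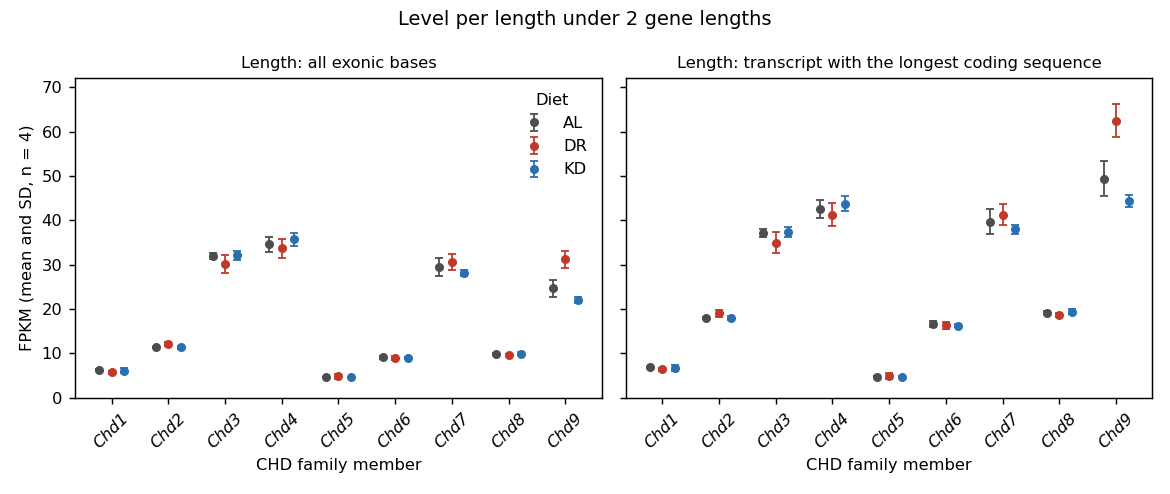
Level of each CHD member in FPKM (mean and SD of 4 mice) on AL, DR and KD, divided by all exonic bases in the left panel and by the transcript with the longest coding sequence in the right panel. Chd9 ranks below Chd4, Chd3 and Chd7 on AL in the left panel and above all members in the right one.

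Chd9 (ENSMUSG00000056608.14, chromosome 8 of GRCm38.p6, 90828352 to 91054516, plus strand, 226165 bases and the longest gene of the family) was the member with the highest count in every diet group. On AL it was at 579, 616, 584 and 507 CPM in replicates 1 to 4. On DR it was at 753, 673, 764 and 700 CPM, and on KD at 514, 531, 510 and 494 CPM. Every DR mouse lay above every AL and every KD mouse. Groups that did not overlap were found in 10.9% of all tested genes for DR and AL, in 11.8% for DR and KD and in 5.38% for DR and the other diets together. The AL and KD ranges overlapped, through AL replicate 4. Means were 571 ± 46.2 CPM on AL, 723 ± 43.1 on DR and 512 ± 15.3 on KD (SD, n = 4 each).

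For Chd9 the log2 fold change was 0.34 (standard error 0.060) for DR against AL and 0.50 (standard error 0.048) for DR against KD, or 1.27-fold and 1.41-fold. For KD against AL it was -0.16 (standard error 0.051), so the KD mice were on the other side of the AL mean from the DR mice. Each pair of these comparisons shares 4 mice. With a library left out in turn, the DR against AL value stayed between 0.29 and 0.38 and the DR against KD value between 0.47 and 0.53. Among the 2382 genes that averaged 100 CPM or more, 11 had a larger log2 fold change for DR against AL and 3 for DR against KD. Over all tested genes, 92.9% had a smaller value than Chd9 for DR against AL and 96.6% for DR against KD. Chd9 was picked for this difference, so these values describe it and carry no test.

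**Figure D2:**
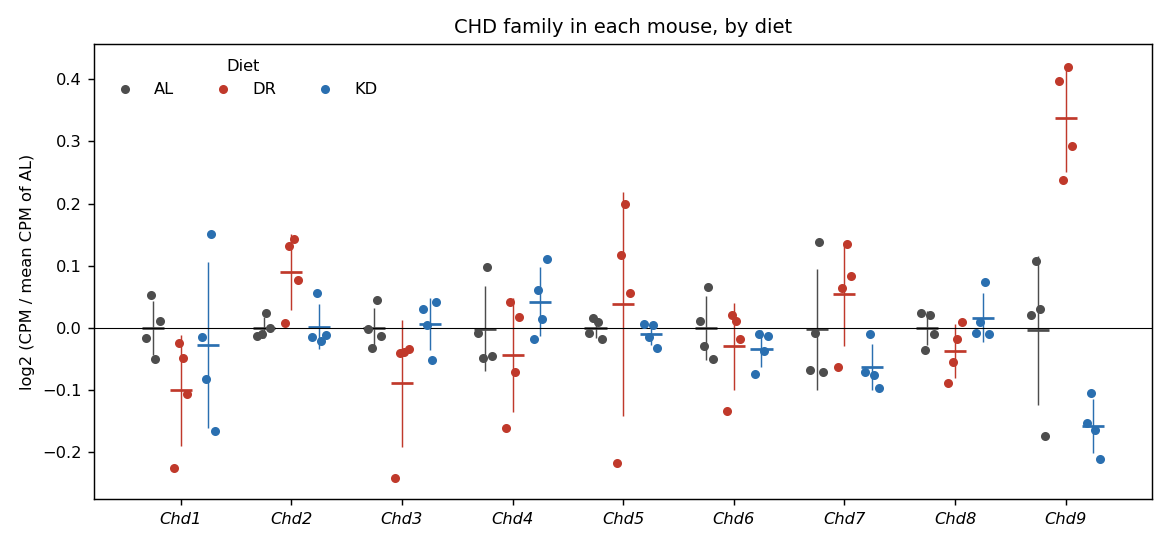
Level of each CHD member in each of the 12 mice, as log2 of CPM over the mean CPM of the 4 AL mice. Points are mice, horizontal lines means and vertical lines SD; the 4 DR points of Chd9 lie above all its AL and KD points, while the diets overlap in Chd1, Chd2 and Chd4 to Chd8, and the DR and AL points of Chd3 do not meet.

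For the other 8 members no difference between diets passed the test. The quasi-likelihood test of edgeR was applied to DR and AL, KD and AL, and DR and KD, and p-values were adjusted over all genes by the method of Benjamini and Hochberg. In DR against AL, 0 of the 8 were called at an adjusted p under 0.05, where 3.06% of all tested genes were called. None of the 8 had an unadjusted p under 0.05 either, next to 18% of all tested genes. In DR against KD 0 of 8 were called, against 4.94% of all tested genes, and Chd7 alone had an unadjusted p under 0.05, next to 18.7% of all tested genes. In KD against AL 0 of 8 were called, next to 0% of all tested genes, and none of the 8 had an unadjusted p under 0.05, next to 4.87%. DESeq2 called 0 of the 8 in each of these comparisons. The median log2 fold change of the 8 was -0.033, -0.024 and -0.00185 in DR against AL, DR against KD and KD against AL, and over all genes it was 0.0036, 0.0024 and 0.00021.

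The fits also gave limits on these differences. Over the 8 members, log2 fold changes ran from -0.099 to 0.091 for DR against AL and from -0.092 to 0.12 for DR against KD. For KD against AL they ran from -0.062 to 0.045. The 95% intervals of the 8 together reached from -0.21 to 0.20, from -0.21 to 0.22 and from -0.16 to 0.14. Whether Chd9 differed from the others in its response was not tested, since it was picked for it.

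**Figure D3:**
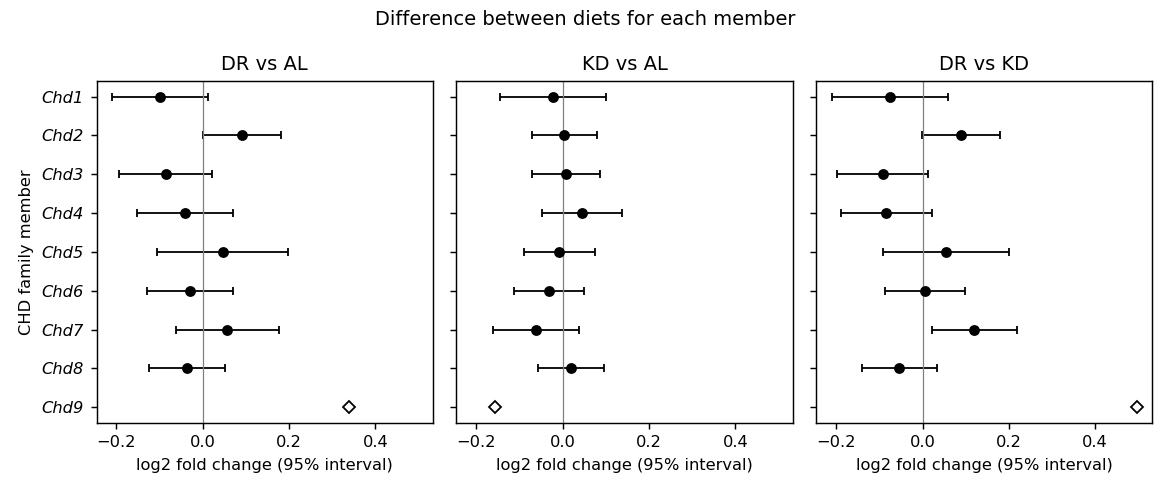
Log2 fold change of each CHD member for DR against AL, KD against AL and DR against KD. Bars are 95% intervals of edgeR's fit for the 8 members chosen by name; Chd9 (open diamond), picked for its DR difference, has no interval and lies at 0.34, -0.16 and 0.50.

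In the subfamily of Chd9, Chd7 came nearest to a difference. Chd7 (chromosome 4, 8690406 to 8867659) is the remodeler of CHARGE syndrome. It was at 387, 404, 446 and 386 CPM on AL, at 389, 424, 445 and 430 on DR and at 386, 403, 385 and 379 on KD. The DR and KD ranges overlapped through DR replicate 1. The log2 fold change for DR against KD was 0.12 (standard error 0.046, edgeR adjusted p = 0.165). Without DR replicate 1 it was 0.16, past the threshold (edgeR adjusted p = 0.0371), but that was the lowest DR mouse, so leaving it out raises the DR mean. Against AL the DR value was 0.057 (edgeR adjusted p = 0.653), and it depended on single libraries. It dropped to 0.029 when DR replicate 3 was left out, and to 0.034 or 0.039 when AL replicate 4 or 1 was. It was 0.105 with AL replicate 3 left out and 0.098 with DR replicate 1 left out.

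Chd8 (chromosome 14, 52198151 to 52257780), a remodeler that binds beta-catenin, had narrow ranges of 159 to 166 CPM on AL, 153 to 164 on DR and 162 to 172 on KD. The log2 fold change was -0.037 for DR against AL (adjusted p = 0.698) and -0.054 for DR against KD (edgeR adjusted p = 0.527). The former was -0.016 without DR replicate 1 and -0.024 without AL replicate 1. Chd6 (chromosome 2, 160946978 to 161109075) had 169 to 183 CPM on AL, 160 to 178 on DR and 166 to 174 on KD. For Chd6 the same comparisons gave -0.028 and 0.0051 (edgeR adjusted p = 0.808 and 0.971). The DR ranges of Chd6, Chd7 and Chd8 each overlapped those on AL and KD.

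None of the NuRD ATPases passed the test. Chd3 (chromosome 11, 69343273 to 69369406) was at 270, 264, 278 and 267 CPM on AL, at 228, 262, 263 and 264 on DR and at 276, 271, 260 and 278 on KD. Its DR and AL values did not overlap, as was true of 10.9% of all tested genes, though the highest DR mouse was at 263.6 and the lowest AL mouse at 264.0 CPM. DR differed from AL by -0.086 on the log2 scale (standard error 0.051; edgeR adjusted p = 0.407), or by -0.034 without DR replicate 1.

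Chd4 (chromosome 6, 125095981 to 125130591), the main NuRD ATPase of many tissues, had 269 to 297 CPM on AL, 249 to 286 on DR and 274 to 300 on KD. Its log2 fold change was -0.041 for DR against AL and -0.084 for DR against KD (edgeR adjusted p = 0.746 and 0.391). Chd5 (chromosome 4, 152338651 to 152390194) was spread more widely on DR than on the other diets. It was at 39.1, 49.3, 52.2 and 47.3 CPM on DR, against 44.9 to 46.0 on AL and 44.5 to 45.7 on KD. The coefficient of variation was 12.0% on DR, 1.09% on AL and 1.25% on KD, and these spreads were not tested. Its log2 fold change was 0.046 for DR against AL (edgeR adjusted p = 0.795), but 0.13 without DR replicate 1, 0.021 without DR replicate 2 and -0.0098 without DR replicate 3.

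Of the remodelers that travel with RNA polymerase, Chd2 (chromosome 7, 73426638 to 73541830) had its DR values on the high side. It was at 161, 162, 166 and 163 CPM on AL, at 164, 179, 180 and 172 on DR and at 161, 169, 161 and 162 on KD. DR replicate 1 lay within the AL and KD ranges and the other 3 DR mice above both. The log2 fold change was 0.091 (standard error 0.043, adjusted p = 0.279) for DR against AL and 0.089 (standard error 0.043, adjusted p = 0.282) for DR against KD, both from edgeR.

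The value of Chd2 is uncertain, because 18.4% of its exonic bases are also annotated to 1810026B05Rik on the same strand. This is the long noncoding RNA Chaserr, which is transcribed just upstream of Chd2 and is known to restrain its expression. It was at 24.03 ± 1.70 CPM on AL, 22.1 ± 1.89 on DR and 23.5 ± 1.86 on KD (SD, n = 4 each). Its log2 fold change was -0.12 for DR against AL (edgeR adjusted p = 0.423). Less than 6% of the exonic bases of each other member overlap another gene. Chd1 (chromosome 17, 15704967 to 15772610) had 52.4 to 56.2 CPM on AL, 46.4 to 53.3 on DR and 48.4 to 60.2 on KD, with a log2 fold change of -0.099 for DR against AL (edgeR adjusted p = 0.338), or -0.055 without DR replicate 1.

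DR against the mean of AL and KD, the contrast Chd9 was picked for, was also fitted on all 12 libraries. Again 0 of the other 8 members were called, against 8.06% of all tested genes. Chd2 and Chd3 had an unadjusted p under 0.05, as had 22.7% of all tested genes, with differences of 0.090 and -0.089 on the log2 scale (edgeR adjusted p = 0.116 and 0.19). Chd2 passed when DR replicate 1 was left out (0.12, adjusted p = 0.0428) and when libraries were scaled by size only (0.11, edgeR adjusted p = 0.0437). DR replicate 1 was the lowest DR mouse for Chd2, so leaving it out raises the DR mean by construction.

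DR replicate 1 was the lowest of the 4 DR mice in 8 of the 9 members, all but Chd9. Over all genes that passed the filter it was the lowest DR mouse in 27.4%. Without it, Chd4 and Chd6 had log2 fold changes for DR against AL of 0.00061 and 0.0086, on the other side of 0. Its library total of 38430082 was the largest of the 4 DR libraries, and lay within the range of the AL and KD libraries. Whether depth played a part was not tested.

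Genes that work beside the CHD remodelers were described from lists compiled for 6 groups: NuRD partner subunits, other CHD partners and the ISWI, SWI/SNF, INO80 and SRCAP, and remaining SNF2 families. Of their 104 genes 103 were tested. For DR against AL, 1 was called higher and 1 lower, next to 1.32% higher and 1.74% lower among all tested genes. For DR against KD, 2 were called higher and 1 lower, next to 2.51% and 2.43%. For KD against AL none was called, as was no gene at all. Their median log2 fold change was -0.012 for DR against AL, -0.0020 for DR against KD and -0.0098 for KD against AL.

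None of the 12 NuRD partner subunits was called in these 3 comparisons, and their log2 fold changes for DR against AL ran from -0.15 to 0.090. The gene that was higher on DR in both comparisons was Ercc6l2 (chromosome 13, 63815240 to 63900302), a SNF2-like helicase linked to DNA repair. It was at 28.5 ± 2.04 CPM on AL, 35.5 ± 1.73 on DR and 28.9 ± 1.80 on KD (SD, n = 4 each), with all DR mice at 34.1 CPM or more and all others at 31.55 CPM or less. Its log2 fold change was 0.32 (standard error 0.061, adjusted p = 0.0129) for DR against AL and 0.29 (standard error 0.058, adjusted p = 0.00774) for DR against KD, both from edgeR.

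Bcl7c, a SWI/SNF subunit, fell from 34.5 ± 1.24 CPM on AL to 28.4 ± 1.67 on DR and was at 33.7 ± 2.10 CPM on KD (SD, n = 4 each). Its log2 fold changes were -0.28 (adjusted p = 0.0176) for DR against AL and -0.24 (adjusted p = 0.0291) for DR against KD, both from edgeR. Smarcd2, another SWI/SNF subunit, was higher on DR than on KD (97.0 ± 5.42 and 82.2 ± 1.92 CPM, SD, n = 4 each; edgeR adjusted p = 0.00685), but its AL mice spread from 80.1 to 99.2 CPM. In DR against the mean of AL and KD, 2 of the 103 genes were called higher and 3 lower, next to 8.06% of all tested genes called. Among them 2 further genes were called, Gatad2a of NuRD and the heterochromatin protein gene Cbx5. Their DR values were lower by log2 fold changes of -0.14 (adjusted p = 0.0399) and -0.15 (edgeR adjusted p = 0.0103), and both genes were named after their values were seen. Ppara, the receptor Chd9 has been linked with, was at 2.40 ± 0.276, 2.06 ± 0.311 and 2.06 ± 0.572 CPM on AL, DR and KD (SD, n = 4 each), and its adjusted p for DR against AL was 0.491 in edgeR's test.

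**Figure D4:**
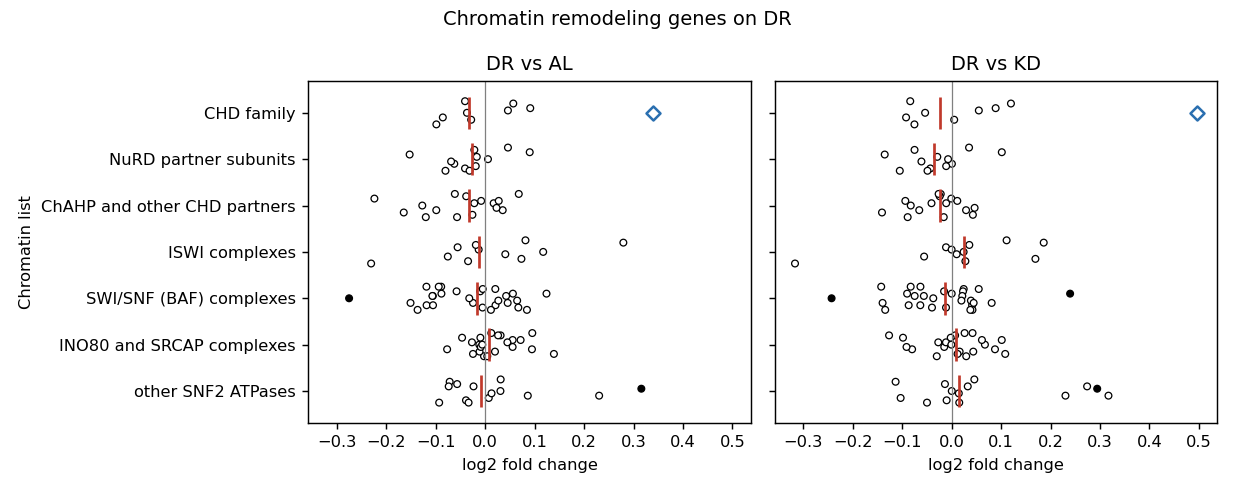
Log2 fold change of each CHD gene and of the genes in 6 further chromatin lists, for DR against AL and for DR against KD. Filled points have an adjusted p under 0.05 in edgeR's test, red bars are list medians without Chd9, and the blue diamond is Chd9, to the right of every other gene in both panels.

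Cell type markers also differed between the DR mice and the others. Of all tested genes, 1.74% were called lower for DR against AL and 2.43% for DR against KD, and 1.32% and 2.51% were called higher. Of 10 markers of Bergmann glia and astrocytes, 4 were called lower and 0 higher for DR against AL, with a summed level of 3051 to 3232 CPM on DR and 3442 to 3584 on AL. For DR against KD 3 of the 10 were called lower, and the KD sum was 3341 to 3489 CPM. Of 10 Purkinje cell markers, 2 were called lower in each of these comparisons, with sums of 7256 to 8303 CPM on DR, 8189 to 9027 on AL and 8167 to 8580 on KD. Of 10 granule cell markers none was called for DR against AL and 1 was called higher for DR against KD, and the sum was 6683 to 6910 CPM on DR, 6373 to 6796 on AL and 6535 to 6774 on KD. Of 10 oligodendrocyte markers 1 was called lower for DR against AL and 2 for DR against KD, with overlapping sums of 2233 to 2765 and 2389 to 3019 CPM on DR and AL. Of 8 oligodendrocyte precursor markers 1 was called lower for DR against AL and 2 for DR against KD. Their sums were 77.8 to 91.5 CPM on DR, 89.2 to 108.9 on AL and 96.5 to 105 on KD. Of 10 microglial markers none was called in either comparison, with sums of 68.4 to 73.7 CPM on DR, 74.4 to 77.8 on AL and 72.3 to 83.4 on KD. Their part in the Chd9 values was not tested.

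The remaining marker lists, for interneurons and Golgi cells, endothelium and pericytes, choroid plexus and meninges, and blood, had overlapping sums on DR and AL. The DR and KD sums overlapped too, except for endothelium and pericytes, at 260.8 to 273.5 CPM on DR and 273.8 to 283.6 on KD. For interneurons and Golgi cells 1 of 10 was called higher for DR against AL and for DR against KD, next to 1.32% and 2.51% of all tested genes. For the other 3 lists none was called for DR against AL. For DR against KD the endothelial receptor gene Kdr was called lower (log2 fold change -0.46, edgeR adjusted p = 0.0168), as were 2.43% of all tested genes. Of the 10 genes of its list, 4 were higher and 6 lower. Ttr of the choroid plexus was also called lower (-2.16, edgeR adjusted p = 0.0332), while of the 9 tested genes of its list 4 were higher and 5 lower. No blood marker was called. Folr1 of the choroid plexus list was at 0 in at least 1 library.

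The members are long genes, and the values of other long genes are given for reference. Of 2640 tested genes with at least 8019 exonic bases, the length of the shortest member, 36 were called higher and 87 lower for DR against AL (4.66%, next to 3.06% of all tested genes), with a median log2 fold change of -0.031. Of 788 genes that span at least as many bases as Chd9, 5 were called higher and 29 lower (4.31%), with a median of -0.057. Over all tested genes the median was 0.0036. Both sets include Chd9, which was picked for its DR difference, so its value of 0.34 was not tested against these medians.

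Near Chd9 on chromosome 8, none of the 9 tested genes inside or nearest to it (3 on each side) was called for DR against AL. Of all tested genes 3.06% were called, so none of 9 is close to that share. Tox3, Gm6658 and Gm45643 among the 9 averaged only 0.39, 0.39 and 0.91 CPM on AL. Whether the region differed as a whole was not tested. The nearest tested gene after Chd9, Rbl2, had a log2 fold change of 0.097 (edgeR adjusted p = 0.282) and Aktip, which follows, one of -0.059 (edgeR adjusted p = 0.545). Sall1, on the other side, was lower on DR than on KD (log2 fold change -0.42, edgeR adjusted p = 0.0406). These neighbours were chosen after the values of Chd9 were known.

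The genes whose levels followed Chd9 most closely were sought among the 15477 genes that averaged 1 CPM or more. Likeness was the root mean square difference over the 12 libraries between log2 CPM centred on the mean of each gene. Nearest was Pnpla2, at 0.067, which encodes the triglyceride lipase ATGL. It was at 23.0 ± 2.62 CPM on AL, 28.0 ± 2.19 on DR and 19.9 ± 1.33 on KD (SD, n = 4 each). Mpg (0.079), a DNA glycosylase, Il20rb (0.080), a cytokine receptor subunit, Errfi1 (0.085), an inhibitor of the EGF receptor, and Ccdc28a (0.087) followed. The value of Mpg is uncertain, because Nprl3 shares 35.7% of its exonic bases on the other strand. How reads in the shared bases were assigned is not given in the sources used here.

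For comparison, the difference between Chd9 and a gene had a median of 0.25 over the 15477 genes. For a gene with the same level in every mouse it would be 0.22, the spread of Chd9 around its own mean. Among the family the difference was smallest for Chd7 (0.18) and Chd2 (0.19), not far below that value, and largest for Chd3 (0.27). All 12 points share library depth and scaling, and the nearest genes were picked on these same values, so the likeness is a description.

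**Figure D5:**
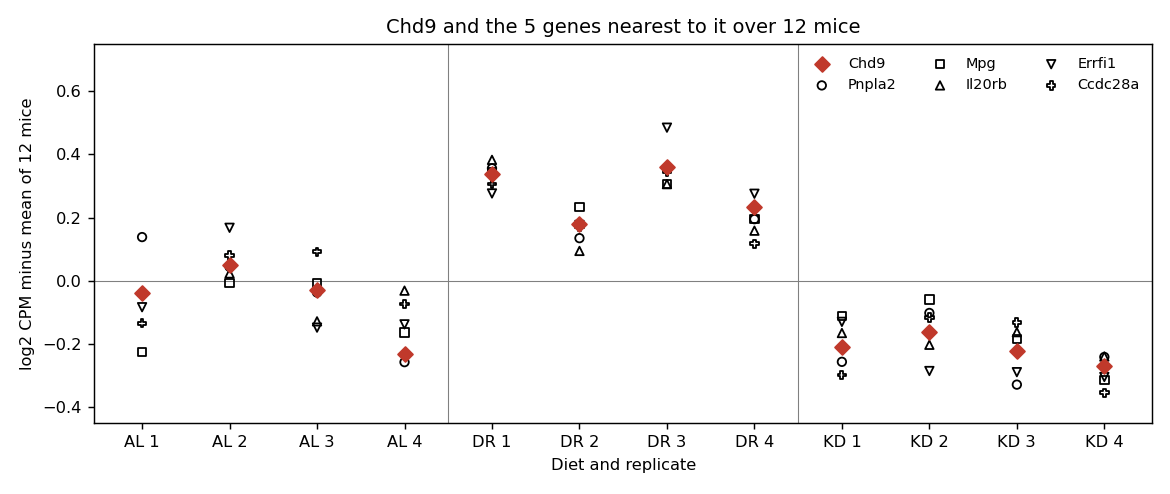
Log2 CPM of Chd9 (red) and of the 5 genes nearest to it in each of the 12 mice, after subtraction of the mean of each gene. All 6 genes lie above 0 in the 4 DR mice and below 0 in the 4 KD mice. The 5 genes were picked for likeness to Chd9 over these mice, so this shared pattern follows from the pick. The AL mice lie on both sides for all but Mpg, whose 4 AL values are below 0.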

How the data were processed

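RNA with poly(A) tails was taken from cerebellar cortex that held no cerebellar nuclei and was sequenced from both ends. The authors trimmed reads with Trimmomatic 0.39, aligned them with STAR 2.7.0f to GRCm38.p6 and counted them per gene with featureCounts of Subread 1.6.4. The deposited table holds these counts without normalization. The strand setting is not given in the sources used here. Diets were taken from the labels, and replicates were numbered in the order of the sample list.

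Genes entered the tests after filterByExpr with a minimum count of 10 and a minimum total of 15. Libraries were scaled by TMM. R 4.3.3 with edgeR 4.0.16 supplied the quasi-likelihood test, run without covariates on the 8 libraries of the diets compared, or on 12 for DR against the mean of AL and KD. Calls were made at an adjusted p of 0.05. Intervals are 95% intervals of that model. Levels in CPM used TMM factors over 12 libraries, and log2 CPM a prior count of 2. The procedure was tested on simulated counts in which 200 genes were changed by known amounts. These changes were larger than the differences of the members other than Chd9. The simulation therefore does not show whether differences as small as theirs would be called. Symbols and exon overlaps came from GENCODE vM21. Alternatives were DESeq2 1.42.0, other scalings and filters, a joint fit and leaving out each library.

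All 9 members were named, with genes of 6 chromatin lists that had an adjusted p under 0.05 and the 5 genes most like Chd9. The members and lists were chosen with earlier results of these data known.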

Additional observations from a re-analysis of the deposited data

Results flagged for a closer look

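Chd9 was singled out because the DR and KD mice lay on opposite sides of the AL mean of 571 CPM: the lowest DR mouse was at 673 CPM and the highest KD mouse at 531 CPM. Since Chd9 was picked for its DR difference, this was not tested.

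An outlying library was sought with Dixon's test in 27 groups of 4 (9 members on 3 diets), of which 2 passed, and chance passes about 1 in 20. In Chd3 the low one was DR replicate 1 with 228 CPM, where its group otherwise held 262 to 264 CPM. For Chd2, KD replicate 2, at 169 CPM, lay above the other KD mice, at 161 to 162 CPM. Without KD replicate 2, Chd2 had a log2 fold change for KD against AL of -0.015.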

How the results depend on the processing

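The log2 fold changes of Chd9 kept their direction in all 59 alternative fits and stayed within 1 SD of the spread between mice. A member other than Chd9 was called in 3 of the 59: for DR against KD, 1 (Chd7) without DR replicate 1, so that leaving out libraries gave 0 to 1, and for DR against the mean of AL and KD, 1 (Chd2) with library size only and 1 without DR replicate 1, again 0 to 1. Over all genes, edgeR called 583 genes for DR against AL (DESeq2 1012, without the filter 1258, with a library left out 235 to 712), of which 252 were higher and 331 lower, but 322 higher and 243 lower with library size only. For KD against AL it called 0 genes (928 at an unadjusted p under 0.05; DESeq2 10, without the filter 118, with a library left out 0 to 6). For DR against KD it called 942 (without the filter 1503, with a library left out 467 to 946), of which 479 were higher and 463 lower, but 617 higher and 376 lower with library size only, and for DR against the mean of AL and KD 1576 (with a library left out 895 to 1718), the split moving from 768 higher and 808 lower to 999 and 610 with library size only. The lowest counts came without DR replicate 3 (DR against AL and DR against the mean) and without KD replicate 3 (DR against KD). The causes were not tested.

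Directions turned for members near 0. With a library left out, log2 fold changes for DR against AL ranged from -0.070 to 0.00061 for Chd4, from -0.0098 to 0.13 for Chd5 and from -0.045 to 0.0086 for Chd6. For KD against AL they ranged from -0.084 to 0.021 for Chd1, from -0.015 to 0.013 for Chd2, from -0.0060 to 0.028 for Chd3 and from -0.00019 to 0.026 for Chd8. For DR against KD Chd6 ranged from -0.011 to 0.038, and for DR against the mean of AL and KD Chd5 from -0.0025 to 0.13 and Chd6 from -0.029 to 0.025. With library size only, Chd6 was at 0.0087 in the last comparison. The length of the transcript with the longest coding sequence, chosen after seeing the data, moved the FPKM of 8 of the 9 members by more than 1 SD. No paired analysis was possible because the labels give no replicate numbers that link mice of different diets.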
